A study of Mus musculus with 6 samples.

Results

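C-type lectin family genes were read here in the hearts of mice after 28 days of tail-suspension, a model of simulated microgravity, and of sham mice. Members were all non-control probes whose gene name on the array begins with Clec and a number, with Klr and a letter from a to k, or with Cd209. The rule found 69 genes of 36163 distinct names, carried by 97 probes. It also took in Klraq1, which shares only the first letters of its name with the family, so counts are also given without it. Gene expression was measured in cardiac muscle of male C57BL/6 mice with 1-colour Agilent arrays, 3 sham and 3 tail-suspension, 1 array a sample. The labels give 10 weeks as the age when suspension began and 11 weeks as the age of the mice, which a suspension of 28 days contradicts, so the age at sampling is uncertain. Sham mice were kept and fed in the same space under the same conditions. The labels do not say whether a sample was 1 heart, so p-values measure the spread between these samples. Where hearts are compared below, each stands for 1 sample. The question was which members differed between sham and tail-suspended hearts.

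A C-type lectin-like domain is a folded module that in some proteins binds sugars in the presence of calcium and in others binds proteins. Myeloid members such as Clec7a (Dectin-1), Clec4n (Dectin-2), Clec4d and Clec4e (Mincle) sense fungi, mycobacteria and dying cells, and many of them signal through the kinase Syk, directly or through the adaptor Fcer1g. Klr members are receptors of natural killer (NK) cells, where the mouse Ly49 receptors (Klra genes) read MHC class I molecules and either inhibit or activate the cell. Most of the family lies in clusters on mouse chromosome 6, the NK gene complex among them, and the rule had 71 probes of 52 genes there.

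The results turn on 7 probes, and the first 30 bases of each are shown because closely related genes of these clusters can only be told apart by what a probe reads. No base is marked in them. Both Klra8 probes lie side by side on the minus strand, at chr6:130065245-130065304 and chr6:130065310-130065369 of mm9, the build of the array design. The Klra9 probe lies at chr6:130139716-130139775, minus strand. Clec12b was read at chr6:129326160-129326219 and chr6:129329932-129329991, minus strand. Clec4d was read at chr6:123224788-123224847 on the plus strand and Clec4e at chr6:123232878-123232937 on the minus strand.
Klra8, probe 1: cagaattgtgttctttctgatttcttaaac
Klra8, probe 2: ttctatcctgttggagagaggacaaatcta
Klra9: aagctcttggaatcctctgtttccttcttc
Clec12b, probe 1: ggattaatctgactcttccagatctatcca
Clec12b, probe 2: cagaaaggactgtatagacaagaatgccac
Clec4d: aggatttgtaaattacctggaataacattc
Clec4e: actggatttcacctgtacttgtatctactg

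Levels below are log2 of the processed intensity relative to the 75th percentile of that array, so a level of 0 is as bright as that percentile. A probe was tested with limma when its signal was well above background, by the scanner software's flag, on every array of at least 1 group. The lowest level among probes well above background was between -4.60 and -4.27 on the 6 arrays, and 51% to 53% of all probes were above background on an array. Brightness depends on the probe, so levels are compared between groups and not between genes. A high level in sham served only to choose genes to name, and the summed linear level of a marker list follows its brightest probes.

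Of the 97 probes, 31 were well above background on all 6 arrays, 12 on some and 54 on none. That left 33 of the 69 genes with no signal above background on any array, and 55.7% of member probes against 42.2% of all probes of the array. The undetected genes were mostly NK cell receptors. No probe of the Nkrp1 receptors (Klrb1a, Klrb1b, Klrb1c, Klrb1f) or of Cd94, NKG2 and NKG2D (Klrd1, Klrc1, Klrc3, Klrk1) was above background on any array, and neither were Klre1, Klrg1, Klri1 and Klri2. Among Ly49 receptors Klra2, Klra5, Klra6, Klra10, Klra12, Klra17, Klra19, Klra23 and Klra33 had no signal above background. Outside the Klr genes, Cd209b, Cd209c, Cd209e, Cd209g, Clec5a, Clec2g, Clec2h, Clec12a, Clec4a2, Clec4a4, Clec4b2 and Clec3a had none. No level is given for these genes, and the arrays do not show whether their RNA was absent.

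**Figure D1:**
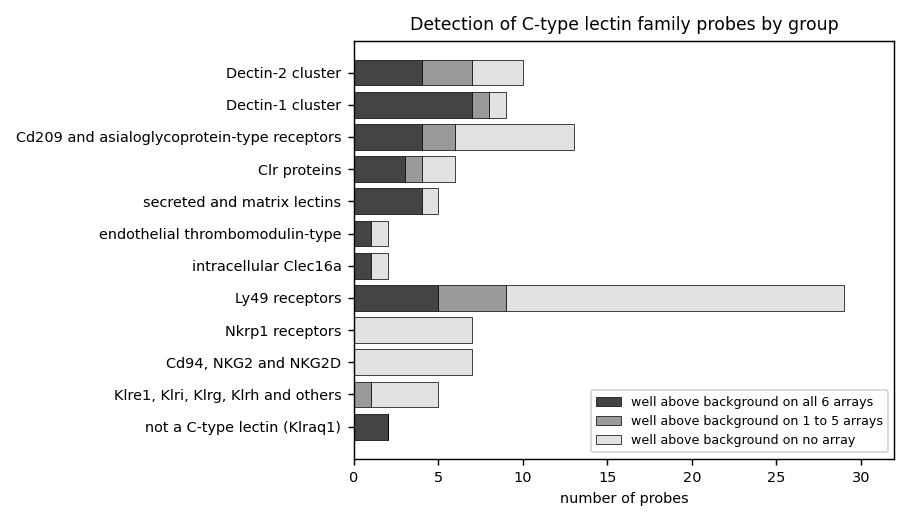
Number of probes (x axis) in each group of C-type lectin family genes (y axis), split by whether the signal was well above background on all 6 arrays, on 1 to 5 arrays or on none. All 7 probes of the Nkrp1 group and all 7 of the Cd94, NKG2 and NKG2D group fall in the last class, against 1 of 9 in the Dectin-1 cluster.

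In all, 36 probes of 30 genes could be tested. Of these, 13 probes of 11 genes were higher in tail-suspension and 7 probes of 6 genes were lower (limma, Benjamini-Hochberg adjusted over all 28032 tested probes of the array), and 16 did not pass. Over all tested probes of the array, 20.4% passed in either direction, 10.8% as higher and 9.57% as lower, against 55.6%, 36.1% and 19.4% of the tested member probes. Without Klraq1 the counts were 11 higher and 7 lower of 34. The groups did not overlap in 25 of the 36 tested member probes, and the same held for 44.0% of all tested probes. The median log2 fold change was 0.45 over the tested members and -0.00485 over all tested probes. Of the tested probes 5 met the background rule through 1 group alone, namely those of Clec4d, Klrg2 and Cd209a through tail-suspension and those of Clec2l and Klra22 through sham. All but Klra22 are among the called probes, 3 of them as higher, so these shares describe the tested probes and not the family.

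The calls were then counted by kind of gene. Of 27 tested probes of Clec and Cd209 genes, 10 were higher and 3 lower, with a median log2 fold change of 0.61. Of 7 tested probes of Klr genes other than Klraq1, 1 was higher and 4 lower, with a median of -1.04. All 4 of the lower Klr probes were Ly49 receptors. In whole tissue, fewer cells of a type and less RNA per cell cannot be told apart.

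**Figure D2:**
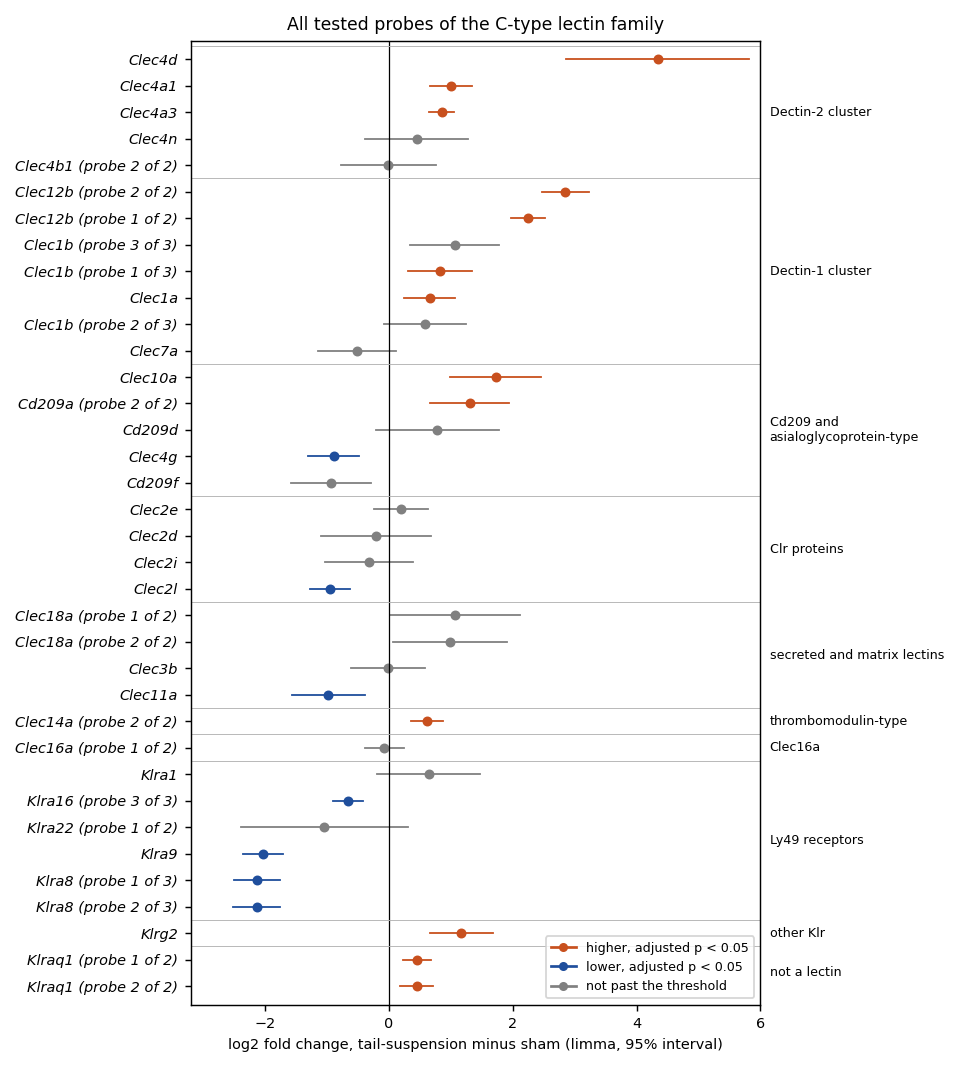
Log2 fold change of tail-suspension over sham (x axis, limma, bars are 95% intervals) for the 36 tested probes (y axis), arranged by group, with 13 higher probes in orange, 7 lower in blue and 16 not past the threshold in grey. In the Dectin-1 and Dectin-2 clusters every probe past the threshold was higher, and among Ly49 receptors every such probe was lower.

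Clec4d, an Fcer1g-coupled receptor of the Dectin-2 cluster also called MCL, had the largest change of the tested members. Its level was -5.08, -5.53 and -4.60 in the sham hearts, never well above background, and -0.63, -2.06 and 0.52 in the tail-suspended hearts, where it was above background on every array. The tail-suspended hearts were all brighter than the sham hearts, and spread over a wider range. The fitted log2 fold change was 4.34 (SE 0.62, n = 3 against 3, limma adjusted p = 0.00803). Set against the lowest level above background on the sham arrays, the tail-suspension mean was at least 12.6-fold higher on this scale. With normexp background correction, which adds an offset of 50 to every intensity and so draws dim signals together, the log2 fold change was 1.80 (limma adjusted p = 0.00926). The methods' t-test with adjustment did not call it. For such a bound, each array of the dimmer group was given the lowest level above background or the probe's own level, whichever was higher, and the average of these was the base of the fold.

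Clec4e, or Mincle, its neighbour in the cluster and its partner in a receptor complex, showed a like order among arrays but was not tested. It stood at -6.76, -6.70 and -6.60 in sham and at -2.99, -5.71 and -1.98 in tail-suspension, and was well above background in tail-suspension 1 and 3 alone. The groups did not overlap, and the tail-suspension mean was 1.76-fold higher than the background bound. That mean includes tail-suspension 2, which was not above background, so the fold is not a lower limit. In both Clec4d and Clec4e tail-suspension 3 was highest and tail-suspension 2 lowest of its group.

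Clec4a1 and Clec4a3 belong to the DCIR genes of the same cluster. Clec4a1 had levels of -0.25, -0.58 and -0.24 in sham and of 0.56, 0.52 and 0.85 in tail-suspension, for a log2 fold change of 1.00 (SE 0.14, limma adjusted p = 0.00781). Clec4a3 had -2.33, -2.35 and -2.41 in sham and -1.60, -1.50 and -1.44 in tail-suspension, for a log2 fold change of 0.85 (SE 0.09, limma adjusted p = 0.00314). Both rose by a small amount with little spread, and neither gene's groups overlapped. Clec4n did not pass, with -1.25, -1.65 and -1.22 in sham against -0.74, -1.72 and -0.32 in tail-suspension (log2 fold change 0.45, 95% interval -0.38 to 1.27). Clec4b1 did not pass either (log2 fold change -0.01, 95% interval -0.77 to 0.75), and its other probe was above background in tail-suspension 2 alone. In the Dectin-2 cluster, then, 3 of 5 tested probes were higher and none lower, beside 10.8% and 9.57% of all tested probes of the array. The Clec4d probe met the background rule through tail-suspension alone, so this count describes the tested probes and not the cluster.

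**Figure D3:**
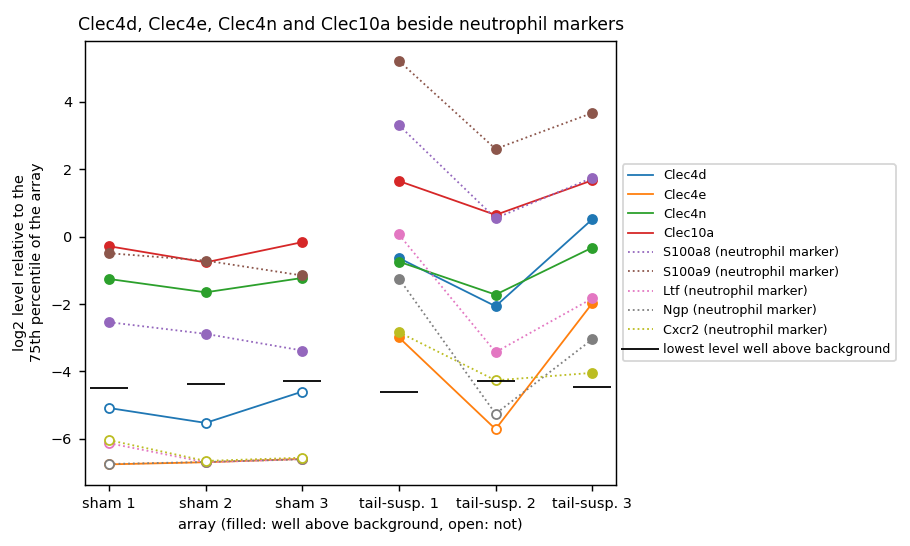
Log2 level (y axis, relative to the 75th percentile of the array) of Clec4d, Clec4e, Clec4n and Clec10a (solid lines) and of 5 neutrophil markers (dotted lines) on each of the 6 arrays (x axis), with filled points well above background and black marks at the lowest level well above background. Clec4d is between -2.06 and 0.52 in tail-suspension and below the marks in sham, while S100a8 and S100a9 were above background in both groups and higher in tail-suspension. The other listed neutrophil markers, Csf3r and Elane among them, are not drawn.

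Clec4d and Clec4e are known in neutrophils and monocytes, and several neutrophil markers moved with them. Of 10 listed neutrophil markers on the array 8 were tested, 5 of which were higher and none lower, and none of the 10 was undetected on every array. S100a8 (log2 fold change 4.80, limma adjusted p = 0.00705) and S100a9 (4.62, limma adjusted p = 0.00661) were above background in both groups. Retnlg was never above background in sham and was at least 12.3-fold higher (limma adjusted p = 0.00384). Elane pointed the other way, with all tail-suspended hearts below all sham hearts, but did not pass (log2 fold change -0.30, limma adjusted p = 0.0674). S100a8 was at -2.54, -2.88 and -3.38 in sham and at 3.31, 0.55 and 1.75 in tail-suspension. Tail-suspension 2 was thus the lowest of its group in S100a8 as in Clec4d, but the highest was tail-suspension 1 in S100a8 and tail-suspension 3 in Clec4d. The summed linear level of the list was 144 to 172 in sham and 208 to 238 in tail-suspension, but Csf3r, the receptor of the neutrophil growth factor G-CSF, made up 77.9% to 99.0% of it and did not pass (limma adjusted p = 0.0926). Without Csf3r the sum was 1.77 to 2.19 in sham and 9.20 to 52.7 in tail-suspension. Their part in the result for Clec4d was not tested.

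Clec12b, an inhibitory receptor of the Dectin-1 cluster, was higher at both of its probes. The first read -3.07, -2.82 and -3.01 in sham and -0.57, -0.85 and -0.73 in tail-suspension, for a log2 fold change of 2.25 (SE 0.11, limma adjusted p = 0.000945), or 4.75-fold. The second read -3.78, -4.34 and -4.28 in sham and -1.23, -1.33 and -1.29 in tail-suspension, for a log2 fold change of 2.85 (SE 0.16, limma adjusted p = 0.00129), or 7.22-fold. In sham 2 and sham 3 this probe lay at or near the lowest level above background on those arrays, -4.37 and -4.28. All tail-suspended hearts lay well above all sham hearts at both probes, with a spread within groups of at most 0.30 (SD). These were the only higher member probes that passed under each of the 19 alternative settings, but the size of the change did not hold. With normexp background correction the log2 fold changes were 1.26 and 1.15.

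The other genes of the Dectin-1 cluster changed less. Clec1a, known from endothelium and dendritic cells, read -1.41, -1.67 and -1.25 in sham and -0.48, -0.87 and -1.01 in tail-suspension, for a log2 fold change of 0.66 (SE 0.17, limma adjusted p = 0.0402). Its groups did not overlap, but the call was lost when any 1 array was left out, with log2 fold changes from 0.51 to 0.77. Clec1b, or CLEC-2, the platelet receptor for podoplanin, passed at 1 of its 3 probes, with -3.06, -3.56 and -3.04 in sham, -2.10, -2.77 and -2.34 in tail-suspension and a log2 fold change of 0.82 (SE 0.21, limma adjusted p = 0.0410). Its other probes pointed the same way, with 1.06 (limma adjusted p = 0.0515) and 0.59 (0.169), so the evidence for Clec1b depends on the probe. Leaving out single arrays ended its call in all cases except that of tail-suspension 2. The call was also lost with normexp background correction (0.19, limma adjusted p = 0.346), with quantile normalization (0.75) and with the deposited log2 values (0.66). Of 8 platelet markers 5 were tested and 1, the integrin Itgb3, was higher (log2 fold change 1.13, limma adjusted p = 0.0333). The median log2 fold change over those 5 was 1.04, and the other 4 did not pass. The platelet chemokine Pf4 had a log2 fold change of -0.22, Gp1ba was not above background on any array, and the summed level was 9.54 to 11.7 in sham and 7.66 to 12.5 in tail-suspension. Pf4 made up 77.6% to 91.5% of that sum, and without it the sum was 0.98 to 1.25 in sham and 1.34 to 2.81 in tail-suspension. Their part in the Clec1b result was not tested.

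Clec7a, the beta-glucan receptor Dectin-1, did not pass. It read 0.29, -0.39 and -0.82 in sham and -0.82, -0.76 and -0.88 in tail-suspension (log2 fold change -0.52, 95% interval -1.14 to 0.11). The sham hearts were spread widely and the groups met at their edge. Clec9a, the receptor by which cross-presenting dendritic cells bind dead cells, was above background in sham 1 and 2 alone and was not tested. Its levels were -3.54, -4.07 and -4.27 in sham against -4.89, -4.50 and -4.87 in tail-suspension. The sham mean was 1.40-fold higher than the background bound of the tail-suspension arrays. That mean includes sham 3, which was not above background, so the fold is not a lower limit.

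Clec10a, the macrophage galactose lectin, read -0.28, -0.76 and -0.16 in sham and 1.65, 0.65 and 1.68 in tail-suspension. Tail-suspension 2 was again the lowest of its group, and still above every sham heart. The log2 fold change was 1.73 (SE 0.31, limma adjusted p = 0.0150), or 3.31-fold. The call was lost without sham 2 (1.55) and without tail-suspension 3 (1.55). Cd209a, the mouse gene named for DC-SIGN and a marker of monocyte-derived dendritic cells, read -4.58, -5.06 and -4.00 in sham, above background in sham 3 alone, and -3.04, -3.48 and -3.21 in tail-suspension. The groups did not overlap (log2 fold change 1.30, SE 0.27, limma adjusted p = 0.0222). After normexp background correction its change was 0.19 and did not pass, and it was also lost without sham 1 (1.29), without sham 2 (1.05), without tail-suspension 1 (1.20) and without tail-suspension 3 (1.29). The other probe of Cd209a was never above background.

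Clec4g, or LSECtin, a lectin of sinusoidal endothelium, went down while Cd209a, on the same chromosome, went up. It read -1.70, -2.02 and -1.95 in sham and -2.47, -3.05 and -2.83 in tail-suspension. Every tail-suspended heart was lower than every sham heart, with a log2 fold change of -0.89 (SE 0.17, limma adjusted p = 0.0177), or 1.86-fold lower. The call was lost without sham 1 (-0.80), without sham 2 (-0.96) and without tail-suspension 3 (-0.87). Cd209f did not overlap between groups either, but did not pass (-2.16, -2.43 and -2.56 in sham, -2.78, -3.31 and -3.86 in tail-suspension, log2 fold change -0.93, limma adjusted p = 0.0528). Cd209d had a log2 fold change of 0.78 (95% interval -0.21 to 1.78). Clec4f, the Kupffer cell lectin, was above background on some arrays of each group and was not tested.

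Macrophage and dendritic cell markers were read beside these genes. Of 14 listed macrophage and monocyte markers on the array 13 were tested, 3 of which were higher and 1 lower, and the summed level was 73.4 to 81.2 in sham and 81.9 to 87.6 in tail-suspension. Itgam made up 31.3% to 55.4% of that sum. Without Itgam the sum was 33.8 to 44.1 in sham and 36.9 to 60.2 in tail-suspension. Cd163, the haemoglobin scavenger receptor, was not above background in sham and was at least 3.39-fold higher in tail-suspension (limma adjusted p = 0.0240), and F13a1 was also higher (0.95, limma adjusted p = 0.0462). Cx3cr1, the fractalkine receptor, was lower (log2 fold change -2.43, limma adjusted p = 0.0016), while Csf1r, the receptor that defines the list, was between 4.23 and 4.63 in sham and between 4.27 and 4.81 in tail-suspension. Of 9 dendritic cell markers 7 were tested and 2 were higher, Flt3 (1.25, limma adjusted p = 0.0224) and Cd209a itself, with Xcr1 and Itgae never above background. Siglech made up over 99% of the summed dendritic cell level, and without it the sum was 0.65 to 1.00 in sham and 0.80 to 0.99 in tail-suspension. Macrophage markers thus moved both ways, and the part of both lists in the results for the lectins was not tested.

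The Ly49 receptors held the largest falls. Klra8, the activating receptor Ly49H of C57BL/6 mice, read -0.50, -1.02 and -0.85 at its first probe in sham and -2.75, -2.95 and -3.05 in tail-suspension. Its second probe, which lies next to the first on the same gene, read -0.65, -1.22 and -0.93 in sham and -2.93, -3.07 and -3.22 in tail-suspension. At both probes all tail-suspended hearts were far below all sham hearts. The log2 fold changes were -2.13 (SE 0.16, limma adjusted p = 0.00194), or 4.37-fold lower, and -2.14 (SE 0.16, limma adjusted p = 0.00212), or 4.40-fold lower. A further Klra8 probe elsewhere in the gene was never above background.

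Klra9, the inhibitory receptor Ly49I, read -1.74, -1.94 and -2.04 in sham and -3.73, -3.98 and -4.12 in tail-suspension. Its groups were as far apart as those of Klra8, with a log2 fold change of -2.04 (SE 0.14, limma adjusted p = 0.0016), or 4.10-fold lower. Its tail-suspension levels lay not far above the lowest level above background on those arrays, which was between -4.60 and -4.27. Both Klra8 probes and the Klra9 probe were the only lower member probes that passed under all 19 alternative settings, though with smaller changes after normexp background correction, where the log2 fold changes were -1.35 and -1.25 for Klra8 and -1.02 for Klra9. Klra16, a Ly49 gene described in other mouse strains, passed at 1 of 3 probes, with -3.38, -3.64 and -3.58 in sham and -4.25, -4.13 and -4.21 in tail-suspension (log2 fold change -0.66, SE 0.10, limma adjusted p = 0.00919). All these values lie close to background, the array design gives this probe no position, and its other probes were never above background.

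Not all Ly49 signals fell. Klra1, the inhibitory receptor Ly49A, read 0.58, 0.54 and 0.65 in sham and 0.93, 0.68 and 2.09 in tail-suspension. Its tail-suspended hearts were all above the sham hearts, tail-suspension 3 by far, but the difference did not pass (log2 fold change 0.65, 95% interval -0.18 to 1.47, limma adjusted p = 0.220). Klra22 read -3.67, -3.82 and -3.23 in sham and -5.65, -3.28 and -4.92 in tail-suspension, where only tail-suspension 2 was above background, and did not pass (log2 fold change -1.04, 95% interval -2.39 to 0.31). Klra4, Klra7 and Klra15 were above background on 1 array each and were not tested.

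Ly49 genes are near copies of each other, so a probe can read more than 1 of them. The passing probes of Klra8 and Klra9 had no run of 15 or more bases in common with a probe of another Ly49 gene, and no other probe of the array shared 40 bases with a passing Ly49 probe. The Klra16 probe matched a Klra22 probe at 35 of 39 aligned bases, and the Klra1 probe held a run of 33 bases in common with a Klra16 probe that was never above background. Probes were compared with probes and not with transcripts, so which Ly49 transcripts each one captures is uncertain.

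**Figure D4:**
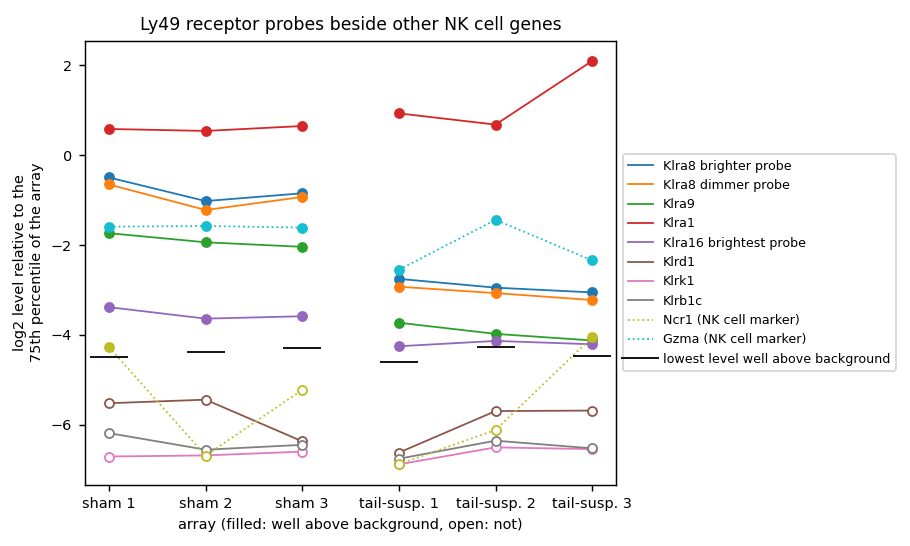
Log2 level (y axis, relative to the 75th percentile of the array) of Ly49 probes and of other NK cell receptor genes (solid lines) and of 2 NK cell markers (dotted lines) on each of the 6 arrays (x axis), with filled points well above background and black marks at the lowest level well above background. Klra8 and Klra9 lie above the marks on all arrays and about 2 log2 units lower in tail-suspension, while Klrd1, Klrk1 and Klrb1c lie below the marks on every array.

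The other NK cell genes were read beside Klra8 and Klra9. Most were below background on every array, where a fall could not be seen. All 8 genes of the Nkrp1 and of the Cd94, NKG2 and NKG2D groups were below background on every array, as stated, so receptors that define NK cells gave no signal above background in either group. Of 11 NK cell markers on the array 4 were tested, 1 of which was higher and none lower, and Gzmb, Eomes, Itga2, Cd160 and Txk were never above background. Cd244 was the marker that rose (log2 fold change 0.48, limma adjusted p = 0.0454). Ncr1, the marker most specific to NK cells, was above background on 1 array of each group. Gzma read -1.59, -1.58 and -1.61 in sham and -2.55, -1.44 and -2.34 in tail-suspension and did not pass. The summed level of the list was 2.95 to 3.53 in sham and 3.15 to 3.89 in tail-suspension. Nkg7 and Cd244, which T cells also express, made up 81.3% to 87.4% of it, and without both the sum was 0.54 to 0.66 in sham and 0.40 to 0.65 in tail-suspension. Of 5 tested T cell markers none passed, and the summed level was 2.86 to 3.13 in sham and 2.47 to 2.70 in tail-suspension. Cd4 made up 59.9% to 67.5% of it, and without Cd4 it was 0.93 to 1.14 in sham and 0.82 to 1.07 in tail-suspension. The part of NK and T cells in the Klra8 and Klra9 result was not tested.

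Since Klra8 and Klra9 fell together, the 250 bases before their transcription starts are shown, from RefSeq on GRCm38.p6, with the letters GAGGAA or TTCCTC in capitals, the core letters of sites for the blood cell factor PU.1 and its relatives on either strand. The best local alignment of the Klra8 and Klra9 stretches had 154 identical bases of 210, or 73.3%. Klra8 lies at chr6:130129899-130130148 and Klra9 at chr6:130193113-130193362, both on the minus strand.
Klra8: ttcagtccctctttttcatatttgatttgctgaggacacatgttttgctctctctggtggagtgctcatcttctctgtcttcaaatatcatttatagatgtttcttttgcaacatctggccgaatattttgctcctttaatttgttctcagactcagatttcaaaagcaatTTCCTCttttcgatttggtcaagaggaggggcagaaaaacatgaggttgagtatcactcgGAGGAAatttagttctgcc
Klra9: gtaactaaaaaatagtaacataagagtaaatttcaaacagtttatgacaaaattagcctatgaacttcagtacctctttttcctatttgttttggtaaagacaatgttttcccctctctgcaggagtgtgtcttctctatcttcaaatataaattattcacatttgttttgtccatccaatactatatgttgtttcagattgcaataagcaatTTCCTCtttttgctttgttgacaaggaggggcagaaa

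Clec4d, at chr6:123261857-123262106 on the plus strand, and Clec4e, at chr6:123289872-123290121 on the minus strand, are shown for the same reason and in the same way.
Clec4d: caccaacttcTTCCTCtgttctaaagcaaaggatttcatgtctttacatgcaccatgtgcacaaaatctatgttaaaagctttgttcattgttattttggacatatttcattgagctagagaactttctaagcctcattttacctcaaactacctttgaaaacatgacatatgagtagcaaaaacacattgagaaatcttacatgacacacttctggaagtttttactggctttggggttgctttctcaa
Clec4e: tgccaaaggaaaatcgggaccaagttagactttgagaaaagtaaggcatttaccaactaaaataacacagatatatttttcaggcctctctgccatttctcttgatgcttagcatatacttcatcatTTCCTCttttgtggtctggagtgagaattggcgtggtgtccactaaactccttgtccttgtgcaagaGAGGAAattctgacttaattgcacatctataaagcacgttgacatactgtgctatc

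RefSeq windows were matched by symbol for 52 of the 69 member genes, 59 windows in all, some of which overlap because a gene has several starts. Windows of related genes can also be alike, as those of Klra8 and Klra9 were, so the 59 are not independent. GAGGAA or TTCCTC was in 32 of these 59 windows, or 54.2%, against 23.3% of all 32851 windows of the same length. The letters stood in 5 of 9 windows of the genes that were higher and in 5 of 6 windows of those that were lower, so they were found in both directions. AGAACA or TGTTCT, core letters of glucocorticoid receptor sites that do not contain the former, was in 22.0% of member windows and in 16.1% of all windows. These matches describe letters in a window and are not sites.

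Klrg2 was the only Klr gene besides Klraq1 that rose. It read -4.84, -5.40 and -4.78 in sham, never above background, and -4.05, -3.93 and -3.51 in tail-suspension, above background on every array. The groups did not overlap, and the tail-suspension mean was at least 1.46-fold higher than the background bound (log2 fold change 1.17, SE 0.21, limma adjusted p = 0.0156). With normexp background correction its log2 fold change was 0.03, so the size of the change rests on how background was removed. Klraq1, now named Ppp1r21 and no lectin, was 1.37-fold higher at both of its probes (log2 fold change 0.45 at each, limma adjusted p = 0.0228 and 0.0352).

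Clr proteins are products of Clec2 genes, some of which are ligands of Nkrp1 receptors. Clec2l, known from brain and counted in this group by its name, read -3.77, -3.86 and -4.03 in sham, above background on every array, and -4.59, -5.00 and -4.93 in tail-suspension, on none. The groups did not overlap, and tail-suspension was at least 1.47-fold lower (log2 fold change -0.95, SE 0.14, limma adjusted p = 0.00816). Clec2d, the most widely expressed ligand of the group, read -0.76, -0.36 and -0.63 in sham and -1.16, 0.11 and -1.34 in tail-suspension, with no call (log2 fold change -0.21, 95% interval -1.10 to 0.67). Clec2e (0.19, 95% interval -0.25 to 0.63) and Clec2i (-0.32, 95% interval -1.04 to 0.39) did not pass. All 3 overlapped between groups.

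Among secreted lectins, Clec11a, a bone growth factor also called osteolectin, was lower. It read -2.71, -2.66 and -3.21 in sham and -4.17, -3.35 and -3.98 in tail-suspension. No tail-suspended heart reached the lowest sham heart, and the log2 fold change was -0.98 (SE 0.25, limma adjusted p = 0.0373). The call was lost without sham 1 (-0.90), without sham 2 (-0.88), without tail-suspension 1 (-0.81) and without tail-suspension 3 (-0.91). Clec3b, or tetranectin, a plasminogen-binding protein, read 1.45, 0.95 and 0.55 in sham and 1.29, 0.73 and 0.89 in tail-suspension, with no difference beyond the spread (log2 fold change -0.01, 95% interval -0.61 to 0.59). Clec18a lay above the sham hearts in every tail-suspended heart at both probes but did not pass. Its brighter probe read -0.41, -0.44 and -0.45 in sham and -0.16, 1.48 and 0.34 in tail-suspension, tail-suspension 2 standing well above the others (log2 fold change 0.99, SE 0.38, limma adjusted p = 0.110).

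Clec14a, an endothelial protein of the thrombomodulin type that binds the matrix protein Mmrn2, read -0.89, -1.07 and -0.87 in sham and -0.19, -0.41 and -0.39 in tail-suspension. It was higher in all 3 tail-suspended hearts (log2 fold change 0.61, SE 0.11, limma adjusted p = 0.0136). Without sham 2 the call was lost (0.55), and its other probe was never above background. Cd93 and Cd248, relatives of Clec14a outside the naming rule, were lower, with log2 fold changes of -1.09 (limma adjusted p = 0.00231) and -0.83 (limma adjusted p = 0.0246). Of 10 endothelial markers, all tested, 1 was higher and 5 were lower, with summed levels of 184 to 197 in sham and 163 to 178 in tail-suspension. Without Egfl7, 53.5% to 60.6% of the sum, they were 72.3 to 78.0 in sham and 75.8 to 81.1 in tail-suspension. Without both Egfl7 and Vwf, the marker that rose, they were 57.2 to 61.3 in sham and 42.9 to 47.7 in tail-suspension. Vwf rose (0.99, limma adjusted p = 0.0028), and Cldn5 (-0.56, limma adjusted p = 0.0245) and Kdr (-0.55, limma adjusted p = 0.0159) fell, so the signal of Clec14a and that of most endothelial markers past the threshold went opposite ways. Their part in the Clec14a result was not tested. Clec16a, an intracellular protein of autophagy, did not pass (log2 fold change -0.07, 95% interval -0.39 to 0.24).

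**Figure D5:**
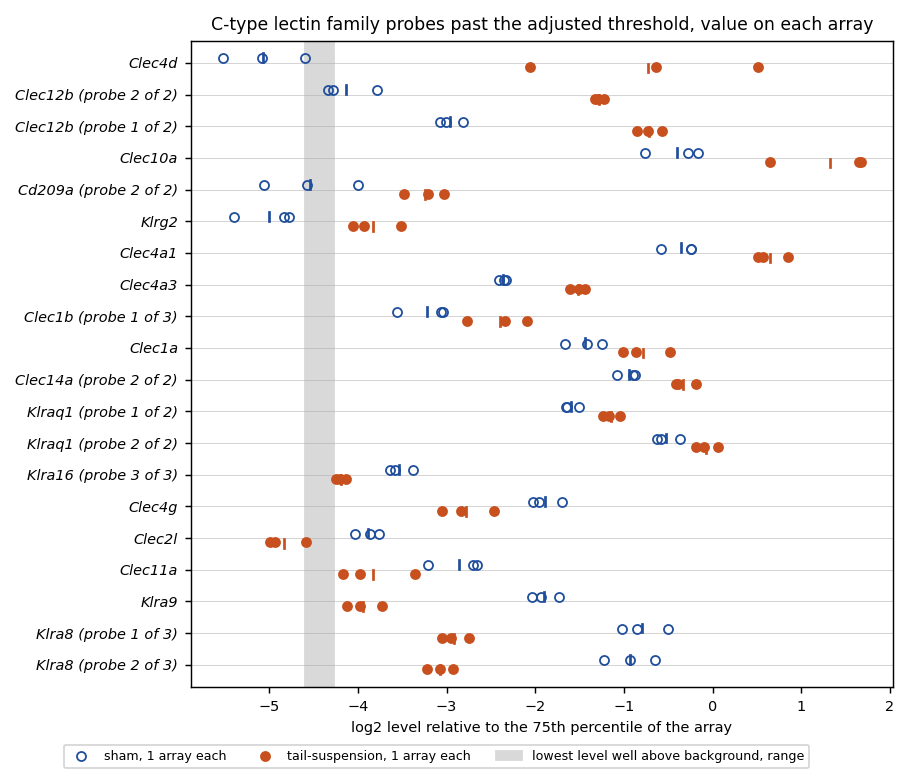
Log2 level (x axis, relative to the 75th percentile of the array) of the 20 member probes past the adjusted threshold (y axis, ordered by log2 fold change) on each sham array (open circles) and each tail-suspension array (filled circles), with short lines at the group means and a grey band at the lowest level well above background over the 6 arrays. No probe shown has overlapping groups, and Clec4d, Klrg2, Clec2l and Klra16 have a whole group at or near the band or under it. Cd209a and the second Clec12b probe have part of their sham values there, and Klra9 has tail-suspension values not far above it.

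Genes that work with the family were read from lists. Of 37 other proteins with C-type lectin-like domains, 17 were tested, none was higher and 2 were lower, the relatives of Clec14a named above. Of 23 adaptors and signalling proteins, 20 were tested, 4 were higher and 2 lower, with a median log2 fold change of 0.26. Prkcd, a kinase downstream of Syk (0.66, limma adjusted p = 0.00674), and Hcst, the DAP10 adaptor of NKG2D (0.76, limma adjusted p = 0.0482), had the largest rises among those past the threshold, and Fcer1g, the adaptor of Clec4d and Clec4e, and Syk, listed on the array as Sykb, also rose. Fcer1g read 2.42, 2.02 and 2.30 in sham and 2.95, 2.64 and 3.05 in tail-suspension (log2 fold change 0.63, limma adjusted p = 0.0343). Lyn (-0.53, limma adjusted p = 0.0141) and Relb (-0.55, limma adjusted p = 0.0271) fell. Tyrobp, the DAP12 adaptor of Ly49H, read 2.58, 2.17 and 2.27 in sham and 2.78, 2.26 and 3.00 in tail-suspension and did not pass (log2 fold change 0.34). Fcer1g was thus higher and Tyrobp had no call, and their part in the results for Clec4d, Clec4e and Klra8 was not tested.

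Of 19 ligands on the array, 12 were tested, 1 was higher and 1 lower. Cdh4, one of the cadherins that Klrg1 can bind, rose (1.47, limma adjusted p = 0.0147), and Mmrn2, the ligand of Clec14a, fell (-0.35, limma adjusted p = 0.0479). The NKG2D ligands Raet1a, Raet1c, Raet1e, H60a, H60b and H60c and the cadherin Cdh1 were never above background. Red cell, fibroblast and cardiomyocyte markers were read to check the tissue. None of 5 tested red cell markers passed, although their summed level was 428 to 689 in sham and 106 to 344 in tail-suspension, none of 8 fibroblast markers passed (70.3 to 77.6 in sham and 33.2 to 66.5 in tail-suspension without Dcn, which made up 72.8% to 88.2% of the sum), and of 8 cardiomyocyte markers 1 was lower, Actc1 (-0.33, limma adjusted p = 0.0364), with 3330 to 3594 in sham and 3188 to 3561 in tail-suspension. The heart muscle genes were bright on all arrays, as the tissue label says.

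All 6 arrays were on 1 slide, with the sham arrays and tail-suspension 1 in one row of it and tail-suspension 2 and 3 in the other. With the row as a block, which rests the group difference on tail-suspension 1 against the sham arrays, 2 member probes were higher and 3 lower, namely both of Clec12b, both of Klra8 and that of Klra9. The change of Clec4d was then 4.44 (limma adjusted p = 0.0869), and all 20 probes kept their direction. For a single gene the exact two-sided permutation test of 3 against 3 cannot go below 0.1.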

How the data were processed

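Total RNA of 3 sham and 3 tail-suspension samples of heart tissue was labelled with Cy3 and hybridised to 1-colour arrays. The authors deposited, per array, the intensity of each spot from Agilent Feature Extraction 10.7.1.1, and 1 table of log2 values, in which columns correlated above 0.999 with the log2 processed intensity and had almost equal distributions. From the processed intensity, log2 levels relative to the array's 75th percentile were derived without control spots, outlier spots were dropped and spots of 1 probe averaged. A probe was well above background when at least 50% of its spots were flagged so. Tests used limma 3.58.1 in R 4.3.3 (lmFit, eBayes, no covariates) with Benjamini-Hochberg adjustment over all tested probes and a threshold of 0.05, checked on simulated data. The number of arrays limits the precision.

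Members, groups and lists were chosen with earlier results of these data known. Named are genes past the threshold, above background in 1 group only, with the 8 highest sham levels or with disagreeing probes, and, of the called genes of each list, the 2 with the largest fitted change either way, beside its defining genes. Companion genes were read from their brightest tested probe. The same replicate number in both groups did not pair the arrays. Other settings tried were normexp, quantile, another percentile, the deposited log2 values, other filters, weights, blocks, the methods' t-test and leaving out each array. No genome or protein sequence was used, probe positions are those of the files (mm9) and probes show the first 30 of 60 bases.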

Additional observations from a re-analysis of the deposited data

How the results depend on the processing

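All 20 member probes past the threshold kept their direction under the 19 alternatives, apart from 4 that the stricter filter left out, and 2 of the 13 higher and 3 of the 7 lower kept the call under each. Higher member probes numbered 8 with normexp background correction, 6 with no filter on dim probes, 6 with the methods' t-test after adjustment and 2 with the slide's row as a block. Lower member probes numbered 3 with that row block. Without single arrays, 6 to 17 were higher and 5 to 9 lower, with 6 higher without sham 2, 7 without tail-suspension 3, 8 without sham 1, 8 without tail-suspension 1 and 17 without tail-suspension 2. Over all probes the row block called 497 and the adjusted t-test 2780 of 28032, and the cause of these differences was not tested. With the replicate number as a block, 13 were higher and 8 lower. The arrays of the same number correlated at -0.02, -0.0176 and 0.0495 in their deviations, so the numbers were not taken as pairs. The call of Clec1a was lost under that block. Among the named probes, the sign changed for Clec16a and Clec3b, which had no call. Clec16a was 0.11 with the row as a block and from -0.16 (without tail-suspension 1) to 0.037 (without tail-suspension 2) over the fits without single arrays. Clec3b was 0.00048 after quantile normalization, 0.0032 with the percentile over detected probes, 0.0089 with array weights, 0.31 with the row block, from -0.23 (without sham 3) to 0.22 (without sham 1) over the fits without single arrays, with 0.11 without tail-suspension 2 and 0.03 without tail-suspension 3. Signals near background, such as those of Klrg2, Clec2l, Cd209a and Klra16, give small and uncertain changes, and members below background could not be compared at all. The second Clec12b probe in sham and Klra9 in tail-suspension also lay near background, so the size of their changes is uncertain.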
